A study of Mus musculus with 6 samples.

Results

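The set described here holds 9 genes of the complement system: C1qa, C1qb and C1qc, which encode the 3 chains of C1q; the components C4b and C3; the inhibitor Serping1; and the receptor genes C3ar1, C5ar1 and Itgam. They were taken from the tables by gene symbol, by a rule that uses no measured value, though the list was drawn up with earlier results of these data known. They make up 9 of the 24459 genes and 22 of the 75457 isoforms in the deposited tables. The 9 genes all passed the low-count filter and were tested among 14441 genes.

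RNA came from brain tissue bordering the blood clot (perihematomal tissue) of wild-type mice on day 5 after intracerebral haemorrhage (ICH, bleeding into the brain). One group received TEPP-46, a small molecule activator of the M2 form of pyruvate kinase, on 5 consecutive days after the bleed, and the other group received vehicle on the same schedule. Every mouse therefore had a haemorrhage, and tissue without one was not analysed here. The sources used here do not give the strain, sex or age of the mice or the way the haemorrhage was made. They do not say either whether each library is a different mouse, so the p-values reflect a spread between libraries that may be technical. Libraries carry the column names C1, C2 and C4 (vehicle) and T1, T2 and T3 (TEPP-46). The letters were read as the groups; the numbers differ from those of the samples and were not used to order or pair the libraries. The genes C2 and C4b are unrelated to the libraries named C2 and C4, and the word library is used throughout for the latter.

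Complement is a set of soluble and membrane proteins that marks targets for removal and signals to immune cells. C1q binds a target and switches on the proteases of the classical pathway, which cut C4 and C2, and these in turn cut C3. Fragments of C3 coat the target and are read by complement receptor 3, while the small fragments C3a and C5a act on their own receptors. In the brain, C1q is made largely by microglia, C3 and C4b by several glial and immune cell types, and C1q and C3 are known for marking synapses for removal.

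The 6 libraries held 5286426 to 6025064 counted reads each, and 18429 to 18985 genes had at least 1 count. Levels are given as CPM, a gene's share of all gene counts of its library on the usual CPM scale, and are compared between libraries and not between genes. Markers of brain tissue were present in every library: neuronal markers summed to 4815 to 6623 CPM and homeostatic microglial markers to 361 to 1071 CPM over the 6 libraries. The vehicle libraries stood apart from each other. Library C2 held the highest and library C4 the lowest sum of homeostatic microglial, monocyte and macrophage, reactive astrocyte and red blood cell markers. Oligodendrocyte markers summed to 5377 CPM in library C4 and to 13158 to 15348 CPM elsewhere. Choroid plexus markers summed to 4986 CPM in library C1, 209 CPM in library C2 and 182 CPM in library C4, and to between 2249 and 3989 CPM with TEPP-46. In bulk tissue, fewer cells of a type and less RNA per cell cannot be told apart.

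The 3 C1q genes lie side by side on the minus strand of chromosome 4 of the mouse build GRCm38, in an interval of 18675 bases (chr4:136880129-136898803) that holds no other annotated gene. C1qb (ENSMUSG00000036905) and C1qc (ENSMUSG00000036896) are 3616 bases apart, and C1qc and C1qa (ENSMUSG00000036887) are 2851 bases apart. The sequence just upstream of C1qb and C1qc, the C1q genes found in RefSeq's promoter table (build GRCm38.p6), is shown. It runs 5′ to 3′ along the genes' strand. The C1qb stretch is chr4:136886201-136886450, and the C1qc stretch is chr4:136893066-136893164, cut at the annotated transcript start. Capitals mark GAGGAA, a core of the binding motif of PU.1, a transcription factor of myeloid cells; in C1qc it lies on the other strand and reads TTCCTC.
C1qb: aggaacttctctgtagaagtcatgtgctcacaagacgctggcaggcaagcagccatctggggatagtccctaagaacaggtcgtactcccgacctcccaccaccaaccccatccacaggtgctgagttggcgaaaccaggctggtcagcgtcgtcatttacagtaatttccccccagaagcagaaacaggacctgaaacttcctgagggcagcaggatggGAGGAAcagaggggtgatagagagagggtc
C1qc: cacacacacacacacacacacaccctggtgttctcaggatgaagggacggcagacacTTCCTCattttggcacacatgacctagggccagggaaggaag
Relative to the RefSeq start, the motif's first base lies at -30 in C1qb and at -193 in C1qc. Promoter sequence was found for 6 of the 9 genes, and 3 of these 6 (C1qb, C1qc and Itgam) held GAGGAA on either strand in the 250 bases before the RefSeq start, against 23.3% of 32851 promoters of the same length. TTCNNNGAA, the core of a STAT motif, was in 0 of the 6 and in 7.02% of all promoters, and GAAANNGAA, part of an interferon regulatory factor motif, was in 1 of the 6, C5ar1, and in 7.13%. A match of letters is a description and no evidence that a factor binds.

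No complement gene of the set passed the test between TEPP-46 and vehicle. By edgeR's quasi-likelihood test, 0 of the 9 had a Benjamini-Hochberg adjusted p under 0.05, as did 0% of all 14441 genes tested, and 0 of the 9 had an unadjusted p under 0.05, against 5.93% of all genes. DESeq2 called 0 of the 9 as well. Adjusted p-values of the 9 genes lay between 0.985 and 0.998. The log2 fold change of TEPP-46 over vehicle was positive for 4 genes and negative for 5, with a median of -0.02, beside a median of 0.01 over all genes tested. The groups overlapped in CPM for all 9, whereas they did not overlap for 11.4% of all genes.

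The wide intervals of these differences come with a large spread inside the vehicle group. Library C2 was the highest of all 6 libraries for 8 of the 9 genes, and library C4 the lowest for 5 and library T1 for 3. Libraries C1 and C4 each lay below every TEPP-46 library for 6 of the 9 genes. The biological coefficient of variation, edgeR's estimate of the relative spread between libraries of a group, was 0.311 for Serping1 and between 0.443 and 0.894 for the other 8 genes, beside a median of 0.207 over all genes. These 8 lay at or above the percentile 96.5 of all genes tested. The SD in CPM was larger among vehicle than among TEPP-46 libraries for 8 of the 9, the exception being Serping1. In log2 CPM, C3 was an exception too, with an SD of 1.76 with vehicle and 2.11 with TEPP-46. Among all genes tested, the TEPP-46 SD in log2 CPM lay between percentiles 97.2 and 99.8 for C1qc, C3, C3ar1 and C5ar1. For the other genes of the set it lay between percentiles 51.0 and 94.2.

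**Figure D1:**
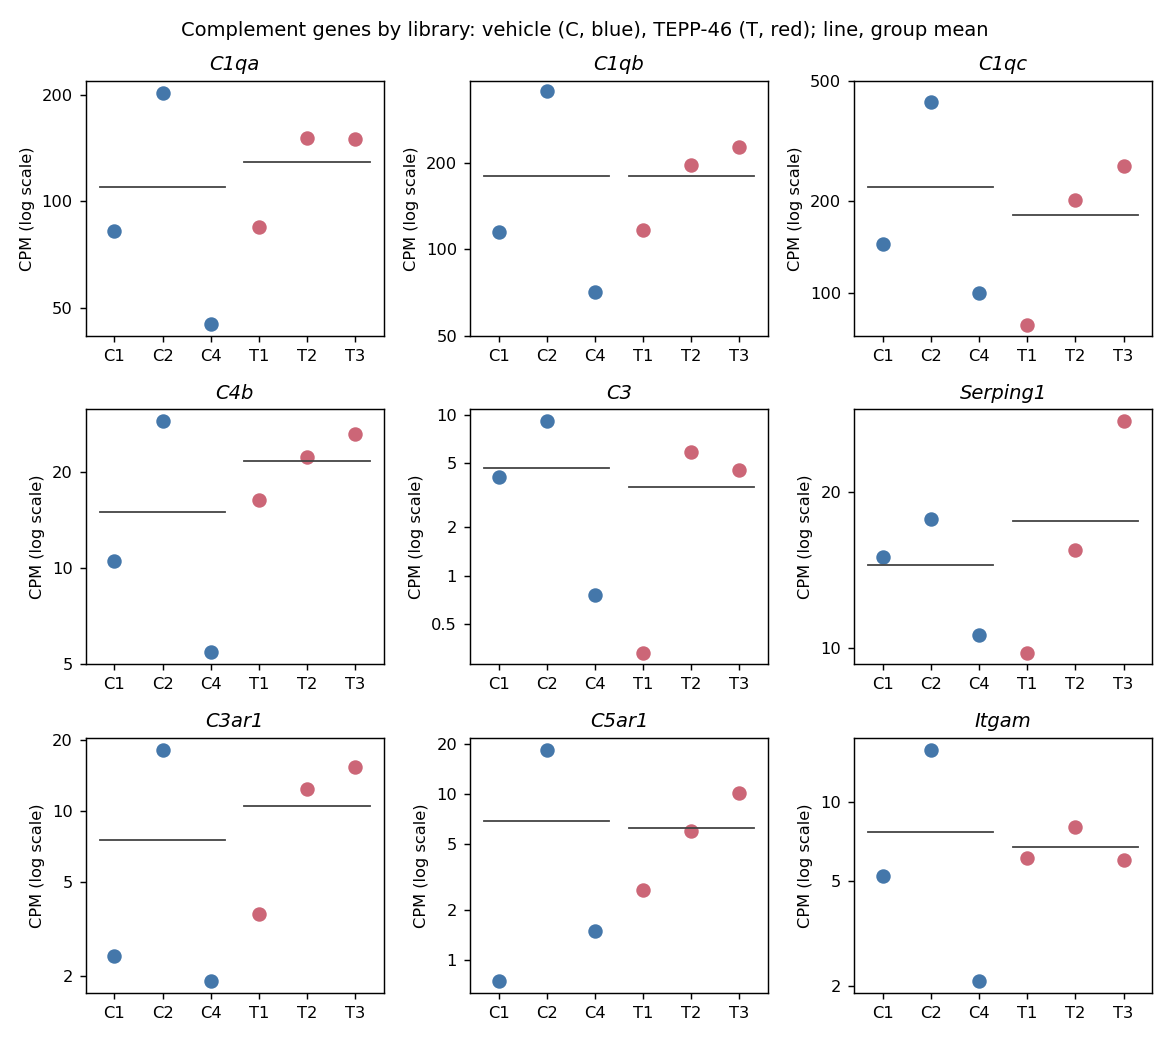
Level of each of the 9 complement genes in each library, in CPM on a log axis that differs between panels, with vehicle libraries (C1, C2, C4) in blue, TEPP-46 libraries (T1, T2, T3) in red and a line at each group mean (n = 3). Library C2 is the highest point in 8 panels and library T3 in that of Serping1.

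C1qa measured 82.4, 202.8 and 45.0 CPM in vehicle libraries C1, C2 and C4, and 85.0, 151 and 150.4 CPM in TEPP-46 libraries T1, T2 and T3. All 3 TEPP-46 values lay inside the vehicle range. The means were 110 ± 82.4 and 129 ± 38.0 CPM (SD, n = 3 each), and the log2 fold change was 0.21 (SE 0.54, 95% interval -1.09 to 1.51, edgeR adjusted p = 0.997).

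C1qb measured 115, 356 and 71.3 CPM with vehicle and 117, 197 and 228 CPM with TEPP-46. The order of the libraries was C2, T3, T2, T1, C1 and C4, so that the highest and the 2 lowest values were all vehicle. Means were 181 ± 153 and 181 ± 56.9 CPM (SD, n = 3 each), which gave a log2 fold change of -0.02 (SE 0.62, 95% interval -1.52 to 1.48, edgeR adjusted p = 0.998).

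C1qc measured 145, 425 and 99.3 CPM with vehicle and 78.2, 201.9 and 262.1 CPM with TEPP-46. Unlike for the other C1q chains, the lowest library was T1 and not C4. Means were 223 ± 176 and 181 ± 93.8 CPM (SD, n = 3 each), which gave a log2 fold change of -0.32 (SE 0.67, 95% interval -1.94 to 1.296, edgeR adjusted p = 0.997). Summed over the 3 chains, C1q reached 343, 983 and 216 CPM in the vehicle libraries and 280, 550 and 640 CPM in the TEPP-46 libraries.

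The C1q protein contains the 3 chains in equal number, so the share of each chain in the summed C1q counts was also described. C1qc made up 42.4%, 43.2% and 46.1% of the C1q counts in vehicle libraries C1, C2 and C4, and 27.9%, 36.7% and 40.9% in TEPP-46 libraries T1, T2 and T3. Every TEPP-46 share was thus below every vehicle share, with means of 35.2% ± 6.67 and 43.9% ± 1.93 (SD, n = 3 each). Exact 95% binomial intervals, which cover counting error only, were 25.7% to 30.1% in library T1, and 39.3% to 42.6% in library T3 against 40.1% to 44.7% in library C1, so that the nearest libraries of both groups were not apart beyond counting error. The C1qa share was 24.1%, 20.6% and 20.9% with vehicle and 30.3%, 27.5% and 23.5% with TEPP-46, which overlap. The C1qb share was 33.6%, 36.2% and 33.1% with vehicle and 41.8%, 35.8% and 35.6% with TEPP-46, which overlap too.

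**Figure D2:**
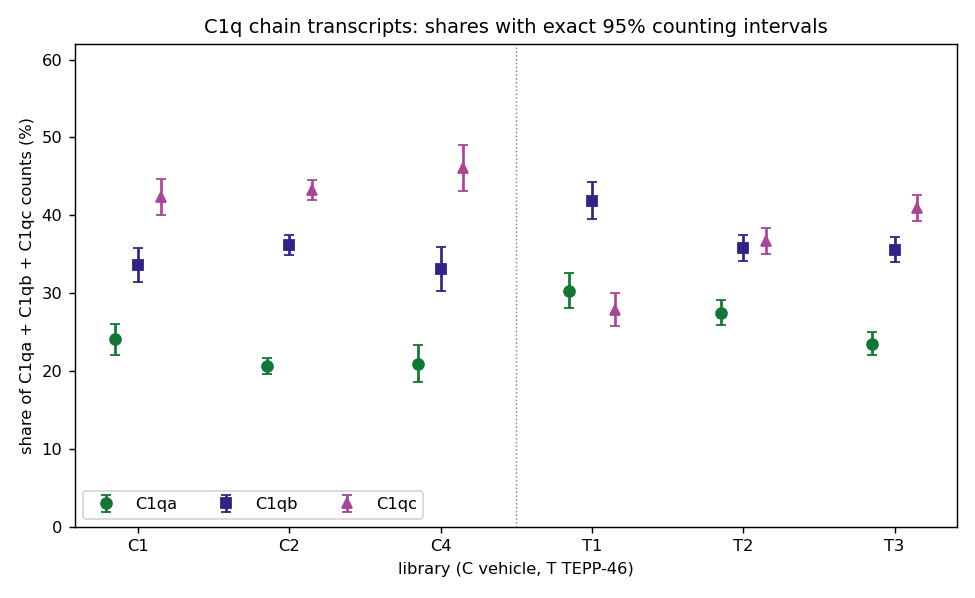
Share of each C1q chain in the summed counts of C1qa, C1qb and C1qc (y axis, percent) by library (x axis), with exact 95% binomial intervals for counting error. The C1qc points (triangles) lie between 42.4% and 46.1% in the vehicle libraries and between 27.9% and 40.9% in the TEPP-46 libraries, lowest in T1.

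Set against the other chains, the count of C1qc was 73.5%, 76.1% and 85.4% of the sum of C1qa and C1qb with vehicle, and 38.6%, 58.0% and 69.3% with TEPP-46. Over the same denominator, 0.540% of 14439 genes were lower in every TEPP-46 library than in every vehicle library, and 0.783% did not overlap in either direction. Of the other 7 genes of the set, C1qc and C4b were the 2 whose ratios did not overlap. For C1qc the ratio restates the share already described, so its lack of overlap is no second observation. These ratios were looked at after the shares had been seen and are given with no test; 3 libraries against 3 allow no exact permutation p below 0.1.

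The genes whose levels over the 6 libraries were nearest to C1q were found as those with the lowest root mean square difference between their centred log2 CPM and the mean centred log2 CPM of the 3 C1q genes. Among 6126 other genes with a mean of at least 20 CPM, the 10 nearest were Cyba, Fcer1g, Fcgr3, Ctsh, Tyrobp, Ptpn18, Grn, Trem2, Laptm5 and Ctss, with distances of 0.128 to 0.171 log2 units, beside a median of 0.794 over all 6126. Tyrobp, for example, measured 179, 587 and 109 CPM with vehicle and 187, 327 and 410 CPM with TEPP-46. Of these 10 genes, only Fcgr3 had a ratio to the sum of C1qa and C1qb that did not overlap between the groups, and it was lower with TEPP-46. By the same distance, C4b had 61 genes nearer to C1q than itself, Itgam 79, Serping1 144 and C3ar1 662, whereas C5ar1 had 5578 and C3 5876. The C1q genes are themselves part of the mean, yet C1qa had 11 such genes and C1qc 20, and C1qb had 0. The distance counts the size of the swings as well as their order: C5ar1 had the library order C2, T3, T2, T1, C4 and C1, with wider swings than C1q. This measure is a description over 6 libraries that share depth and tissue composition within each column.

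C4b (ENSMUSG00000073418, chr17:34728380-34743882, minus strand) encodes the mouse C4 that is cut by the activated C1 proteases. It measured 10.5, 28.8 and 5.49 CPM with vehicle and 16.3, 22.2 and 26.2 CPM with TEPP-46. Libraries C1 and C4 were below all TEPP-46 libraries and library C2 above all of them. Means were 14.9 ± 12.3 and 21.6 ± 4.997 CPM (SD, n = 3 each), and the log2 fold change was 0.51 (SE 0.52, 95% interval -0.70 to 1.71, edgeR adjusted p = 0.985), the most positive of the 9. C4b has a near-identical neighbour, C4a, a symbol that no gene in the deposited counts carries. Reads from such copies can be hard to assign, so the C4b counts are uncertain.

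Relative to the sum of C1qa and C1qb, C4b was higher in every TEPP-46 library than in every vehicle library. Its count was 5.31%, 5.15% and 4.72% of the sum of C1qa and C1qb in vehicle libraries C1, C2 and C4, and 8.04%, 6.38% and 6.93% in TEPP-46 libraries T1, T2 and T3, with means of 5.06% ± 0.309 and 7.12% ± 0.844 (SD, n = 3 each). The groups did not overlap, and over this denominator 0.242% of 14439 genes were higher in every TEPP-46 library. Against the summed homeostatic microglial markers C4b was also higher in every TEPP-46 library, at 3.04%, 3.003% and 3.43% against 2.15%, 2.69% and 1.52%; 0.568% of 14431 genes were so placed, and C4b was 1 of the 9 complement genes whose groups did not overlap on this scale, against 1.68% of genes in either direction and 1.11% lower with TEPP-46. These ratios carry no test for the reason given for C1qc. They rest on 56, 164 and 29 C4b counts with vehicle and 98, 125 and 139 with TEPP-46. Whether the nearest libraries of both groups differ beyond counting error was not tested.

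C3 (ENSMUSG00000024164, chr17:57203970-57228136, minus strand), on which all activation routes converge, was counted at a low level. Its raw counts were 22, 52 and 4 in the vehicle libraries and 2, 33 and 24 in the TEPP-46 libraries. In CPM these are 4.12, 9.12 and 0.757 with vehicle and 0.332, 5.87 and 4.52 with TEPP-46. One library in each group, C4 and T1, held almost none, and the highest level was 27.5 times the lowest. The log2 fold change was -0.42 (SE 0.93, 95% interval -2.59 to 1.75, edgeR adjusted p = 0.997), so that a difference of several-fold in either direction was not detectable at this depth and spread.

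Serping1 (ENSMUSG00000023224, chr2:84765387-84775444, minus strand) encodes C1 inhibitor, which inactivates the C1 proteases. It measured 14.98, 17.7 and 10.6 CPM with vehicle and 9.79, 15.5 and 27.3 CPM with TEPP-46. It was the 1 gene of the set with its highest value in a TEPP-46 library, T3, and both its extremes lay in that group. Means were 14.4 ± 3.59 and 17.5 ± 8.94 CPM (SD, n = 3 each), which gave a log2 fold change of 0.26 (SE 0.36, 95% interval -0.56 to 1.08, edgeR adjusted p = 0.993). This interval is the narrowest of the 9. Without library T3 the log2 fold change was -0.20.

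C3ar1 (ENSMUSG00000040552, chr6:122847138-122856161, minus strand) encodes the receptor of C3a. Its raw counts were 13, 104 and 10 with vehicle and 22, 70 and 82 with TEPP-46. In CPM these are 2.43, 18.2 and 1.89 with vehicle and 3.65, 12.5 and 15.5 with TEPP-46. Library C2 held 8.43 times the mean of the other vehicle libraries, which lay below every TEPP-46 library. The log2 fold change was 0.44 (SE 0.90, 95% interval -1.68 to 2.57, edgeR adjusted p = 0.997).

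C5ar1 (ENSMUSG00000049130, chr7:16246743-16259540, minus strand) encodes the main receptor of C5a. Its raw counts were 4, 106 and 8 with vehicle and 16, 34 and 54 with TEPP-46, or 0.749, 18.6 and 1.51 CPM and 2.66, 6.05 and 10.2 CPM. Library C2 reached 16.4 times the mean of libraries C1 and C4, the widest such gap among the 9 genes. The coefficient of variation, 0.894, was also the highest of the set, and the log2 fold change was -0.19 (SE 1.08, 95% interval -2.76 to 2.38, edgeR adjusted p = 0.997).

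Itgam (ENSMUSG00000030786, chr7:128062640-128118491, plus strand) encodes CD11b, the alpha chain of complement receptor 3, which is carried by microglia, monocytes, macrophages and neutrophils. It measured 5.24, 15.8 and 2.08 CPM with vehicle and 6.14, 8.004 and 6.03 CPM with TEPP-46. The TEPP-46 libraries were close to each other, with a highest value 1.33 times the lowest, against 7.59 times in the vehicle group. The log2 fold change was -0.22 (SE 0.60, 95% interval -1.58 to 1.14, edgeR adjusted p = 0.997). Itgb2, which encodes the beta chain of the same receptor and was named after its values were seen, measured 2.81, 17.5 and 0.567 CPM with vehicle and 3.82, 9.60 and 12.1 CPM with TEPP-46, with a log2 fold change of 0.24 (SE 0.98).

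For C1qa, C4b, Serping1 and C3ar1 the log2 fold change was positive with and without library C2. For C1qb, C1qc, C3, C5ar1 and Itgam it was negative with all libraries and positive without library C2. This library was the highest of all 6 for 8 of the 9 genes, so leaving it out raised their log2 fold changes by construction. The shares of all genes beside the counts below therefore do not test the set. Without library C2, all 9 log2 fold changes were positive, with a median of 0.95, whereas 51.7% of 14752 genes were positive. Of the 9, C1qa (1.01), C1qb (0.95), C4b (1.42), C3ar1 (2.26) and C5ar1 (2.44) then had an unadjusted edgeR p under 0.05, against 10.2% of all genes and 4.51% for higher levels with TEPP-46. None of the 9 passed the adjusted threshold, the lowest adjusted p being 0.144 for C4b, and 0.291% of all genes did. C1qc (0.56), C3 (0.53), Serping1 (0.44) and Itgam (0.87) did not reach an unadjusted p under 0.05 without library C2. Leaving out library T1 made 8 of the 9 positive, with log2 fold changes of C1qb, C1qc, C3 and C5ar1 of 0.21, 0.04, 0.13 and 0.18. Leaving out library C4 made 7 of the 9 negative, among them C1qa at -0.16 and C3ar1 at -0.01. C4b stayed positive in each of the 6 fits with 1 library left out, with log2 fold changes between 0.11 and 1.42.

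**Figure D3:**
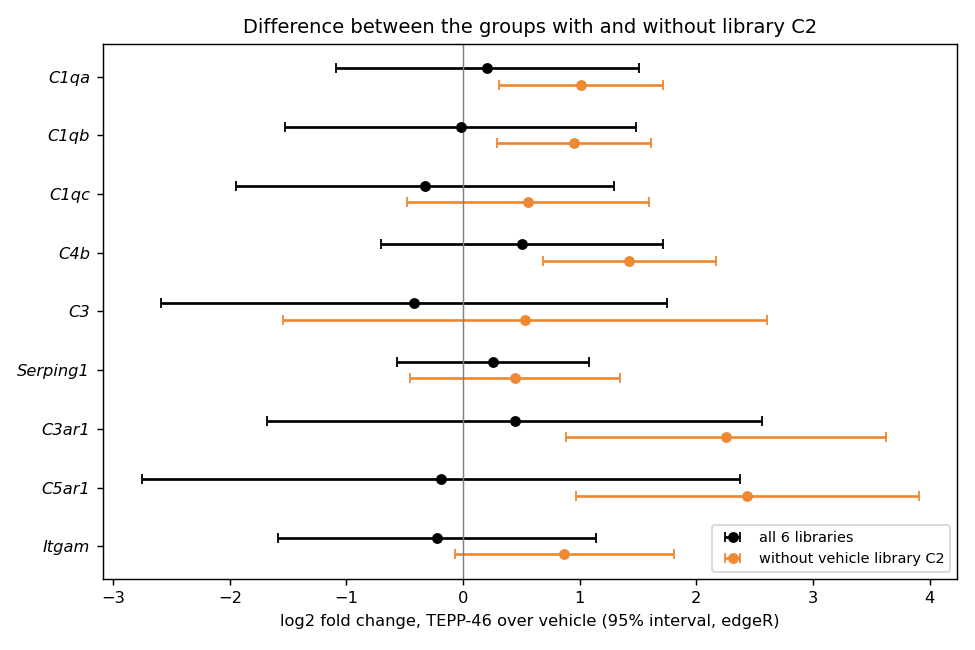
Log2 fold change of TEPP-46 over vehicle (x axis) with its 95% interval from edgeR for each of the 9 genes, from all 6 libraries (black) and without vehicle library C2 (orange). With all libraries every interval spans 0; without library C2 all 9 points are positive and the intervals of C1qa, C1qb, C4b, C3ar1 and C5ar1 do not span 0.

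Several marker lists moved with the complement genes over the libraries, and others did not. The 10 homeostatic microglial markers, all of them counted, summed to 488, 1071 and 361 CPM with vehicle and to 536, 740 and 763 CPM with TEPP-46. The 8 monocyte and macrophage markers, also all counted, ranged from 68.5 to 678 CPM with vehicle and from 117 to 395 CPM with TEPP-46, and the 9 reactive astrocyte markers from 110 to 829 CPM and from 268 to 670 CPM. The 5 red blood cell markers ranged from 319 to 1053 CPM and from 560 to 748 CPM. All 4 sums had the library order C2, T3, T2, T1, C1 and C4, which was also the order of C1qb, C4b and C3ar1. The 8 neutrophil markers summed to 9.55 to 15.8 CPM, with Ly6g and Retnlg at 0 in all libraries. Neurons showed the opposite extremes, with the lowest sum in library C2 and the highest in library C4. Astrocyte and oligodendrocyte sums were highest in library T1, and the choroid plexus sum in library C1. The fibroblast and mural cell sum was highest in library C2 and lowest in library T1. The part of cell composition in the complement values was not tested.

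**Figure D4:**
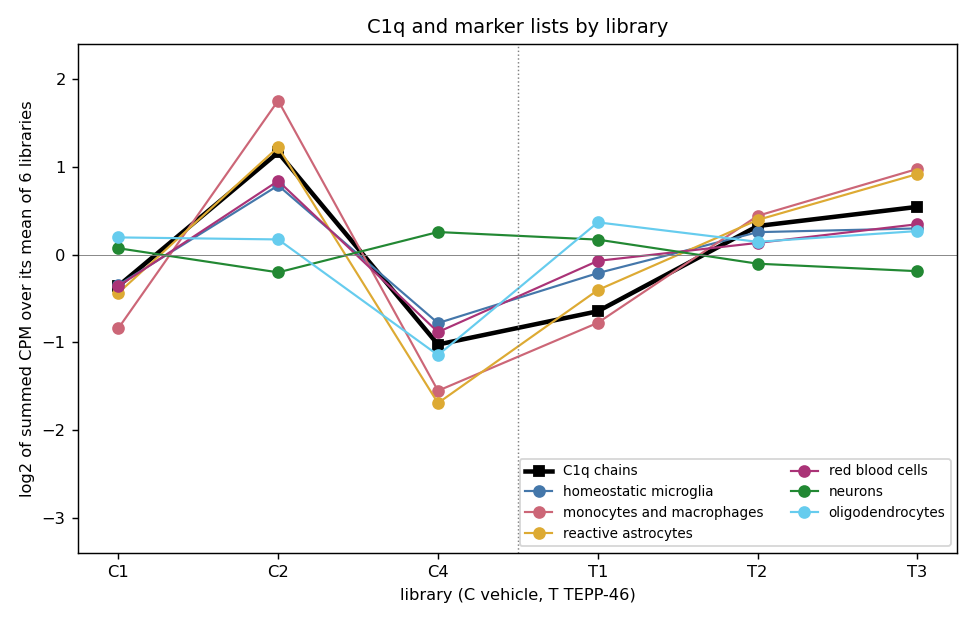
Log2 of the summed CPM of the C1q chains (black squares) and of 6 marker lists, each relative to its own mean over the 6 libraries, by library; the dotted line separates vehicle from TEPP-46. C1q and the microglial, macrophage, reactive astrocyte and red blood cell sums are highest in library C2 and lowest in library C4, and the neuronal sum is the reverse.

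Scaling to microglial markers narrowed the spread of C1q. As a ratio to the summed homeostatic microglial markers, the highest library was 1.64 times the lowest for C1qa, 1.68 times for C1qb and 2.72 times for C1qc, against 4.504, 4.99 and 5.43 times in CPM. The ratio of summed C1q was 70.2%, 91.8% and 59.7% with vehicle and 52.4%, 74.3% and 83.9% with TEPP-46, which overlap. C5ar1 kept a wider range, 11.3 times against 24.8 times in CPM, and C3 13.7 times against 27.5 times. The microglial sum itself was 2.97 times higher in its highest than in its lowest library, less than the range of C3 or C5ar1.

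The other complement genes did not pass the test either. Of 55 further genes listed by pathway position, 54 were in the gene table and 23 were tested; 13 had a positive and 10 a negative log2 fold change, with a median of 0.07. By edgeR 0 of the 23 were called, 1 was higher and 1 lower with TEPP-46 at an unadjusted p under 0.05, against 1.88% and 4.05% of all genes. The groups did not overlap in 2 of the 23, Cd59a and C1qbp, against 11.4% of all genes. Of the rest of the 54, 10 had no count in any library and 13 had 1 to 10 counts in all.

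Cd59a, a membrane protein that blocks the final pore, was the gene higher with TEPP-46 at an unadjusted p under 0.05. It measured 15.9, 9.999 and 6.43 CPM with vehicle and 19.9, 18.0 and 23.0 CPM with TEPP-46, with a log2 fold change of 0.90 (SE 0.30, unadjusted p = 0.0150, edgeR adjusted p = 0.662). It did not pass the adjusted threshold.

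By position in the cascade, the gene C2 measured 2.996, 3.86 and 2.65 CPM with vehicle and 1.16, 2.67 and 1.88 CPM with TEPP-46 (log2 fold change -0.75, SE 0.41), and C1ra was counted 38 times over all libraries. In the lectin pathway, Colec12 (-0.20, SE 0.19) and Masp1 (0.32, SE 0.42) were tested, of 9 genes listed. In the alternative pathway, Cfb, or factor B, measured 5.99, 18.9 and 3.03 CPM with vehicle and 7.80, 6.05 and 8.29 CPM with TEPP-46, and Cfp, or properdin, 1.31, 7.54 and 1.70 CPM and 2.16, 1.96 and 2.64 CPM. Both were highest in library C2, as most of the 9 genes were. The terminal components, which form the membrane pore, were counted 40 times in all over 7 genes, 24 of them C8g and 6 C7, and 0 of the 7 were tested.

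Among regulators, clusterin (Clu) had a log2 fold change of 0.04 (SE 0.13). Sez6l2 and Sez6, members of a family of neuronal complement inhibitors, had log2 fold changes of 0.37 (SE 0.20) and 0.26 (SE 0.21). Among proteins described as C1q receptors, Calr had a log2 fold change of -0.02 (SE 0.16). C1qbp measured 70.2, 67.5 and 67.7 CPM with vehicle and 12.3, 43.4 and 65.0 CPM with TEPP-46 (log2 fold change -0.78, SE 0.49, edgeR adjusted p = 0.943). Its vehicle libraries were close to each other, and library T1 was far below the rest. Of the regulators and C1q receptors named here, Cd59a had an unadjusted p under 0.05 and the others did not.

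At the isoform level, 22 isoforms of the 9 genes were listed, 19 of them with at least 1 count and 3 of them new. C1qa, C1qb and C3ar1 had a single counted isoform. The 14 isoforms that passed the filter gave 0 calls by edgeR, as did 0% of 33854 isoforms, and 0 had an unadjusted p under 0.05, against 5.77% (1.88% higher and 3.90% lower with TEPP-46). DESeq2 called 0 of 19, but gave no adjusted p to C4b-202, Serping1-202, Itgam-202, Itgam-205 and Itgam-206, which could not be called. Isoform usage, tested with diffSpliceDGE, was called in 0 of the 5 genes with at least 2 tested isoforms (C1qc, C3, Serping1, C5ar1 and Itgam), against 0.0131% of 7639 genes. In all 5 genes the leading pair kept a nearly fixed proportion of counts in every library, as described below. This test therefore cannot show whether their isoform usage differed. The known C1qc isoform C1qc-201 made up 60.0% to 60.7% of the C1qc counts in every library, including T1, and the new isoform the remainder; this split varied between libraries by less than independent counting of reads would give. C4b-201 made up 89.7% to 97.1% of C4b, and its share was 94.3% ± 4.07 with vehicle and 93.5% ± 3.66 with TEPP-46 (SD, n = 3 each; exact permutation p = 1).

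The leading isoform pairs of 4 genes had nearly the same counts in every library. C3-201 and a new C3 isoform were counted 11 and 11, 26 and 26, 2 and 2, 1 and 1, 17 and 16, and 12 and 12 times in libraries C1, C2, C4, T1, T2 and T3. Itgam-201 and Itgam-203 differed by at most 1 count in any library, and the pairs of C5ar1 and Serping1 by at most 2. The gene count equalled the sum of the isoform counts in 9 of 9 genes. The C1qc split was likewise too even for independently counted reads. Whether a read was counted for both isoforms of a pair, or divided between them, was not tested; the read numbers behind the counts of C1qc, C3, Serping1, C5ar1 and Itgam are uncertain to that extent, and so are the C1qc shares and ratios and their binomial intervals.

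**Figure D5:**
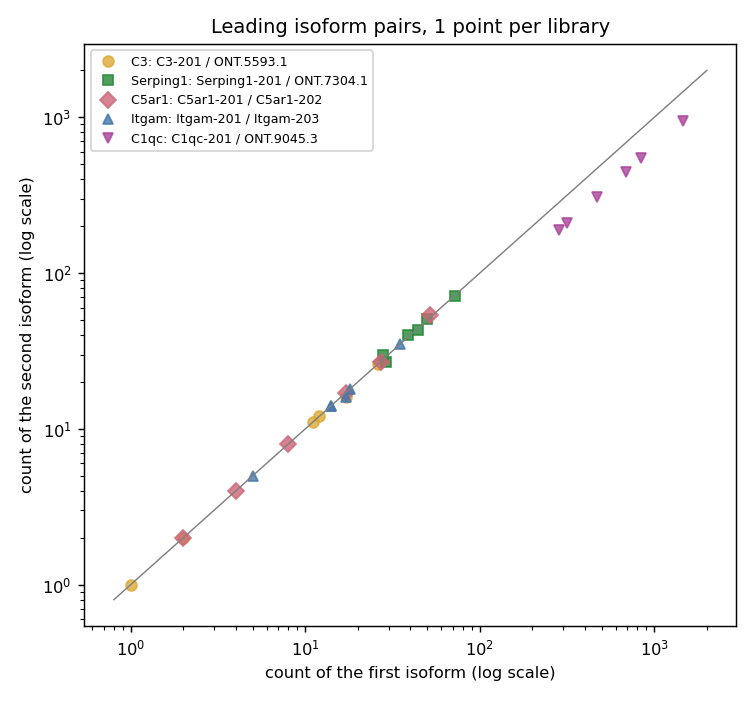
Counts of the leading 2 isoforms of C3, Serping1, C5ar1, Itgam and C1qc, 1 point per library on log axes; the grey line marks equal counts. The pairs of C3, Serping1, C5ar1 and Itgam lie on the line, and C1qc lies below it with its known isoform at 60.0% to 60.7% of the gene.

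The structures of these pairs show how little can separate them. Itgam-201 and Itgam-203 share 4649 exon bases and differ in the coding part by 3 bases, CAG, at the start of exon 14 of 30 (chr7:128101634-128101636, GRCm38). Both junction sequences are shown from the reference with 15 bases on each side, and capitals mark the 3 bases that Itgam-203 lacks.
Itgam-201: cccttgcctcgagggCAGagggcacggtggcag
Itgam-203: cccttgcctcgagggagggcacggtggcag
C5ar1-201 and C5ar1-202 have the same 1053 coding bases and share 2451 exon bases. Itgam-201 made up 14 of 28, 35 of 90 and 5 of 11 Itgam counts with vehicle, and 17 of 37, 18 of 45 and 14 of 32 with TEPP-46. These shares overlap (exact permutation p = 0.8).

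In the authors' deposited table, the p-values of the 9 genes lay between 0.285 for C4b and 0.965 for C1qb, and 0 of the 9 carried a call. In the same authors' deposited table, log2 fold changes ran from -0.0959 for C3 to 0.247 for C4b, a narrower range than the -0.42 to 0.51 fitted here.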

How the data were processed

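Long-read nanopore cDNA-PCR libraries of total RNA were counted in 3 TEPP-46 and 3 vehicle samples. The authors deposited raw counts per gene and per isoform, per the file headers, and these counts were used as deposited. The authors' deposited p-values and log2 fold changes were quoted only where named; 12 further per-library columns were left out. DESeq 1.10.1 and the build GRCm38 are named per the submitters' processing notes; the sources used here do not give the aligner or counting tool.

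Counts were tested over all genes or isoforms with edgeR 4.0.16 (R 4.3.3): filterByExpr, TMM, robust quasi-likelihood F test with group alone, Benjamini-Hochberg adjustment, called under 0.05. Isoform usage was tested with diffSpliceDGE. SEs were derived from the F statistic. DESeq2 1.42.0, other scalings, no filter, a replicate block over libraries C1, C2, T1 and T2 only, and leaving out each library were alternatives. Scripts were tested on simulated data. Column numbers were not used to pair libraries in the main fit. Deviations from group means correlated at 0.10 for C1 with T1 and 0.05 for C2 with T2. Over all pairs of a vehicle and a TEPP-46 library they ran from -0.26 (C2 with T1) to 0.24 (C2 with T3). Such correlations cannot settle whether libraries were paired by design.

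The members, gene lists and tests were chosen with earlier results of these data known. Named beside the 9 genes were other listed complement genes with an unadjusted p under 0.05 or among the 2 highest in mean CPM of their list, and the 10 genes nearest to C1q. One gene that this rule took is not reported here. Binomial intervals of shares cover counting error only; intervals of log2 fold changes include the spread between libraries.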

Additional observations from a re-analysis of the deposited data

How the results depend on the processing

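The 0 calls among the 9 complement genes held under DESeq2, RLE scaling, library totals alone, no low-count filter, the replicate block and leaving out each library. Over all genes the calls numbered 85 with DESeq2 (3 higher, 82 lower), and over leave-one-out fits they ran from 0 to 43, the latter without library C2. Isoform calls numbered 148 with DESeq2, 165 without the low-count filter and 0 to 178 over leave-one-out fits (1 without library C1, 178 without library C2), with 0 complement isoforms among them. The column number was used as a replicate block (C1 with T1, C2 with T2), which the labels do not state to be a pairing. It gave calls for 0 genes and for 20 of 34604 isoforms, 2 of them among the 14 complement isoforms tested. These were C1qc-201 and the new C1qc isoform, with log2 fold changes of -1.03 and -1.02 and an edgeR adjusted p of 0.0314 each. Both isoforms split the C1qc counts in a nearly fixed proportion, so the 2 calls are not independent. The C1qc gene was not called in this fit (log2 fold change -1.02, edgeR adjusted p = 0.403). The fit with this replicate block also left out libraries C4 and T3. It gave log2 fold changes of -0.23 for C1qa, -0.43 for Serping1 and -0.19 for C3ar1, each the reverse of the fit of all 6 libraries. With no block, leaving out library C4 alone gave -0.16 for C1qa and -0.013 for C3ar1. Leaving out library T3 alone gave -0.20 for Serping1. Effects of the block and of the libraries left out cannot be told apart here, for the C1qc isoform calls as well. Leave-one-out log2 fold changes ran from -0.16 to 1.01 for C1qa, -0.40 to 0.95 for C1qb, -0.68 to 0.56 for C1qc, -0.99 to 0.53 for C3, 0.11 to 1.42 for C4b, -0.20 to 0.55 for Serping1, -0.013 to 2.26 for C3ar1, -0.71 to 2.44 for C5ar1 and -0.67 to 0.87 for Itgam. The cause was not tested. Under the scaling, filter and DESeq2 settings all 9 kept their sign. Counts per library were 2 to 52 for C3, 4 to 106 for C5ar1, 10 to 104 for C3ar1 and 11 to 90 for Itgam. These genes rest on few reads as well as on a wide spread between libraries.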
